A study of Mus musculus with 6 samples.

Results

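The levels of 10 mouse genes of the Hippo pathway and its output were measured in oligodendrocyte precursor cells after knockdown of the chromatin remodeller Chd7. The 10 genes were chosen by name and matched to the gene symbols of the array's probe annotation, out of 19321 genes with a symbol on the array. They are the CCN matrix protein genes Ccn1, Ccn2 and Ccn3, the YAP target genes Ankrd1, Amotl2, Lats2 and Ajuba, and the genes of the transcriptional module itself, Yap1, Wwtr1 (which encodes TAZ) and Tead1. All 10 were on the array with 11 probes, 2 of them for Tead1. The cells came from the forebrains of Jcl:ICR mouse embryos at E15.5 and were kept with FGF2 and PDGF-AA, the mitogens that hold these precursors in division. They were infected with a control retrovirus (3 samples) or a Chd7 knockdown retrovirus (3 samples), and RNA was taken 3 days later. The labels do not give the knockdown sequence, the share of infected cells, or whether each replicate was a culture of its own. The p-values therefore rest on the variation among these 6 samples alone, and that variation may be technical.

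The Hippo pathway is a kinase relay that restrains growth. The kinases MST1 and MST2 activate LATS1 and LATS2, which phosphorylate the coactivators YAP and TAZ and keep them out of the nucleus. Unphosphorylated YAP and TAZ enter the nucleus and bind TEAD factors at promoters and enhancers of genes such as Ccn1, Ccn2 and Ankrd1. Several targets feed back on the pathway: LATS2 phosphorylates YAP, the angiomotin AMOTL2 holds YAP in the cytoplasm, and the LIM protein Ajuba restrains LATS. RNA levels do not report on phosphorylation or location of these proteins.

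The promoters of the members are shown first because TEAD factors read a short motif in them. In the RefSeq promoter table (GRCm38.p6) 7 of the 10 members matched, and Ccn2, Ccn3 and Tead1 did not. The TEAD motif was searched as GGAATG and, for the opposite strand, CATTCC. These 2 cannot overlap each other, but a CArG box, the SRF motif, can share its outer bases with either. Of the 7 genes, 6 held it within the 250 bases before an annotated transcription start, namely Ccn1, Ankrd1, Amotl2, Ajuba, Yap1 and Wwtr1. The share among all 27025 genes with an entry was 14.4%. In the same window the motif stood in 2 of 10 other YAP target genes (20%), 9 of 30 other Hippo genes (30%), 6 of 17 SRF genes (35.3%) and 0 of 7 TGF-beta genes with an entry. Lats2 held it from base 5 of the transcript at 1 of its 2 listed starts, which brought the count to 7 of 7 in the full window of 300 bases, against 16.6% of all genes. A match is a description of the sequence and not a bound site. The sequences below run 5′ to 3′ along the gene, with the motif in capitals. The first 4 are the promoters of 2 textbook YAP targets and of 2 members whose RNA changed, and the fifth is the 30 bases around the Lats2 match.
Ccn1, chr3:145649986-145650235, minus strand: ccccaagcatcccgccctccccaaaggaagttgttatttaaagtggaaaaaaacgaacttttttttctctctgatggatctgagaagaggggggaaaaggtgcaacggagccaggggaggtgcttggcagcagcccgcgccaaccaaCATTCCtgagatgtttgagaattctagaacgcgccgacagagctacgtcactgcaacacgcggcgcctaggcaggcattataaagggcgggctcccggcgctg
Ankrd1, chr19:36119845-36120094, minus strand: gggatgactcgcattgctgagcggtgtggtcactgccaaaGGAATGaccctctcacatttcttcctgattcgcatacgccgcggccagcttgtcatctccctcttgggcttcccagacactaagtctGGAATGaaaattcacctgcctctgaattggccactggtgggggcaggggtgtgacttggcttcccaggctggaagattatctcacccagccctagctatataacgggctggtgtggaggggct
Amotl2, chr9:102717554-102717803, plus strand: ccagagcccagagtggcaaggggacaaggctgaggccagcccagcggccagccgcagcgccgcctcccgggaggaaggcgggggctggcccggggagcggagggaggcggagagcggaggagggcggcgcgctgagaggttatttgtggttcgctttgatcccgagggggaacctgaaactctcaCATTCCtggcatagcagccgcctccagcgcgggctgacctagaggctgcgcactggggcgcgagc
Wwtr1, chr3:57575877-57576126, minus strand: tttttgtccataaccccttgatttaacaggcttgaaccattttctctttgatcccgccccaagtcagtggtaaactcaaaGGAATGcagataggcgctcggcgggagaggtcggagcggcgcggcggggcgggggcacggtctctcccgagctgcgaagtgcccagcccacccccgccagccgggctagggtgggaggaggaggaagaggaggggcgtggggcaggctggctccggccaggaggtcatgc
Lats2, chr14:57746102-57746131, minus strand: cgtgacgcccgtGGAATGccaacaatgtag

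The matches lay 103 bases before the start in Ccn1, 210 and 123 in Ankrd1, 65 in Amotl2, 186 and 164 in Ajuba, 141 in Yap1, and 170 before the start shown for Wwtr1. The CArG box was found on either strand in the 250 bases before the start of 0 of the 7 members and of 1.62% of all genes. It stood in 6 of 17 SRF genes (35.3%) and in 0 of the other Hippo, YAP target and TGF-beta genes with an entry. At a share of 1.62%, 0 of 7 says little about the members, and Ccn2 had no entry.

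**Figure D1:**
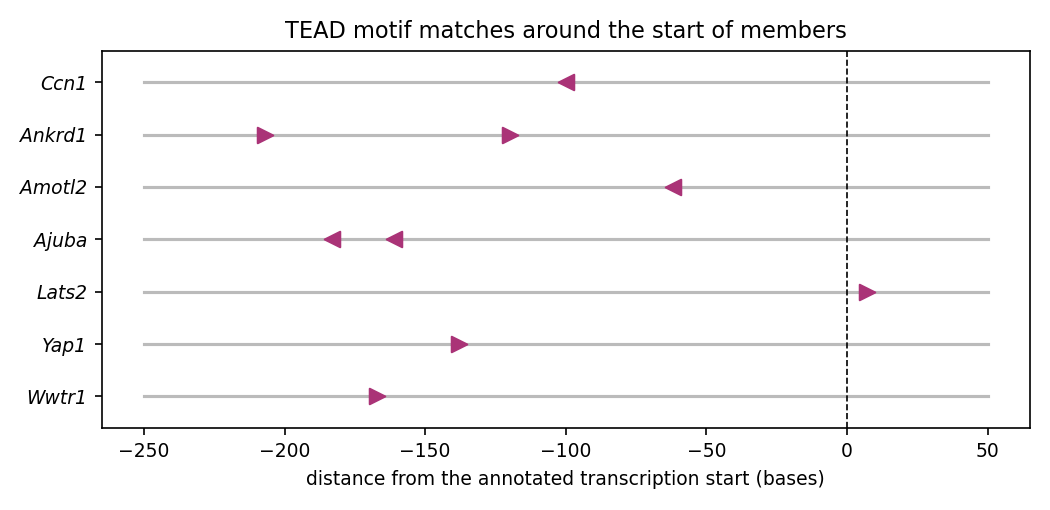
Position of TEAD motif matches (triangles, pointing right for GGAATG and left for CATTCC) along the 300 bases around 1 annotated transcription start of each of 7 members, in bases from the start (dashed line). All matches of Ccn1, Ankrd1, Amotl2, Ajuba, Yap1 and Wwtr1 lie before the start, and that of Lats2 lies just after it.

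Signals were set against a detection limit, the mean of the blank spots plus 2 SD, which was 60.6 to 64.0 raw units over the 6 arrays. The 8 members whose probes were above the limit on 6 of 6 arrays were tested. Ccn3 was above it on 0 arrays and Ankrd1 on 1, so both were left out of the test. Normalised values are log2 intensities after a background correction that adds an offset of 50 units, so changes of dim genes are compressed on this scale. Between knockdown and control, limma called 1677 of 17422 genes at an adjusted p below 0.05, which is 9.63% of the genes tested (4.48% higher, 5.14% lower). Among the 8 tested members 4 passed: Ccn2, Lats2 and Wwtr1 rose, and Amotl2 fell. The other 4, Ccn1, Ajuba, Yap1 and Tead1, did not pass. The median log2 fold change was 0.07 over the 8 members and 0.00077 over all genes. The members were picked with earlier results of these data known, so the share that passed carries no test.

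**Figure D2:**
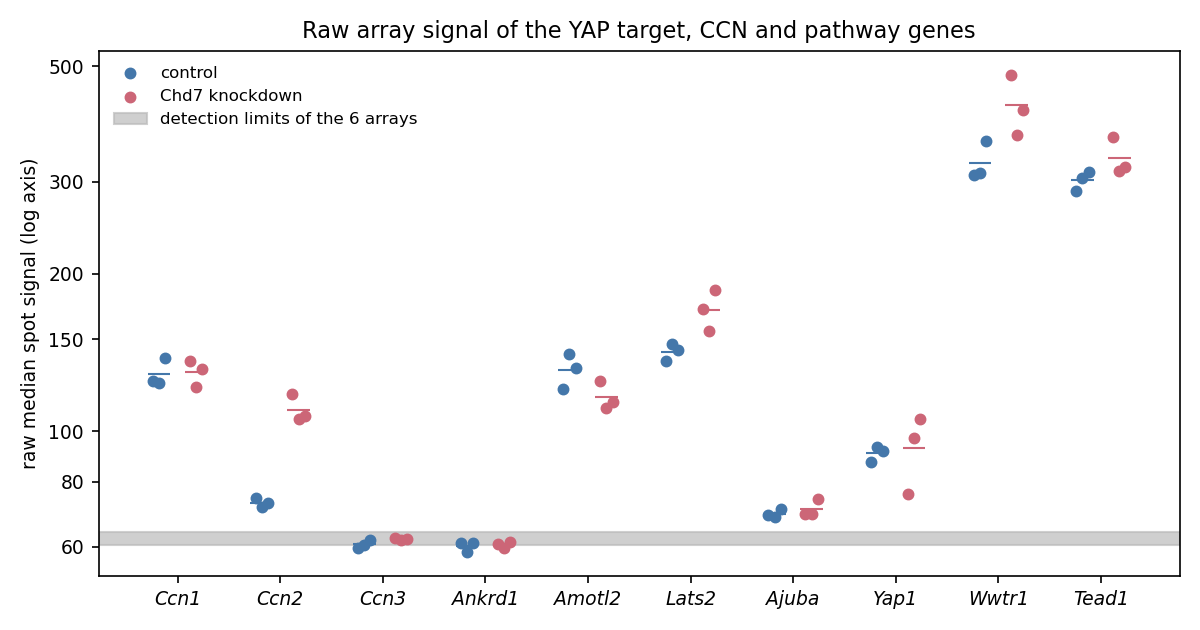
Raw median spot signal (log axis) of the 10 members, with a point for each control array (blue) and Chd7 knockdown array (red), bars at the group means, and the range of the detection limits of the 6 arrays in grey. Tead1 is shown by its brighter probe. Ccn3 and Ankrd1 lie at the limit in both groups, and the 3 knockdown arrays of Ccn2, Lats2 and Wwtr1 lie above their 3 control arrays.

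The knockdown itself was seen on both Chd7 probes, with log2 fold changes of -0.88 (SE 0.0859, adjusted p = 0.00127 over all 20997 probes, of which 8.83% passed) and -0.48 (SE 0.0676, adjusted p = 0.00411). All 7 tested of 8 listed precursor markers, among them Olig2 and Pdgfra, were above the limit on 6 of 6 arrays. So were all 7 astrocyte and all 6 neuronal markers, and the 4 tested of 6 listed microglial markers. Of 8 listed fibroblast and pericyte markers 7 were tested, and 6 of those were above it on all 6 arrays. Of 6 endothelial markers 3 were tested, and 2 of those were. The untested markers of these last lists were on the array but did not pass the filter for testing. That filter asks for signal above the limit on at least 3 arrays, so tested markers are detected by choice. On each array 87.0 to 89.8% of probes were above the limit, so being above it says little about the cells present. Of the 7 precursor markers 5 fell under knockdown virus, Pdgfra by 1.36 and Olig2 by 0.35 on the log2 scale. With the replicate block, where 14.8% of all genes passed, 6 of the 7 fell, the sixth being Olig1 (-0.24, adjusted p = 0.037). In this bulk RNA, fewer cells of a type and less RNA per cell cannot be told apart. Of 7 astrocyte markers limma called 0, with 2 at an unadjusted p below 0.05 (Gja1, 0.44, and Slc1a2, -0.47). With the replicate number as a block these 2 passed, at adjusted p = 0.00888 and 0.0162. The other Slc1a2 probe read 0.09 in limma without the block (adjusted p = 0.403 over all probes), so the Slc1a2 call rests on 1 probe. The astrocyte list's summed intensity was 7122 to 7547 under control virus and 7949 to 8446 under knockdown virus. That of the precursor list was 12275 to 14560 under control virus and 9363 to 10660 under knockdown virus. Such sums are of linear normalised intensity less the offset, so the brightest genes dominate them. The median log2 fold change was -0.48 for the precursor list, with 1 gene positive and 6 negative. For the astrocyte list it was -0.00072, with 3 genes positive and 4 negative. The part of these genes in the changes below was not tested. Of the fibroblast and pericyte markers, cells in which CCN genes are high, 7 of 8 were tested and limma called 0, with 1 at an unadjusted p below 0.05. Their summed intensity was 95.6 to 105 under control virus and 95.4 to 105 under knockdown virus. Apart from Pdgfrb (6.41), their control means were 5.75 to 6.14 on the log2 scale. That is near the floor, where changes are compressed, so a flat list says little about such cells. Endothelial and microglial lists also gave 0 limma calls of 3 and of 4 tested, with 0 and 0 at an unadjusted p below 0.05. Of 6 neuronal markers 1, Dcx, fell by 0.71 (adjusted p = 0.00831). The list's summed intensity was 581 to 706 under control virus and 382 to 527 under knockdown virus, and Dcx was the brightest of the 6. The list's median log2 fold change was -0.0083, with 3 genes positive and 3 negative. With the replicate block Tubb3 (-0.20, adjusted p = 0.0329) and, in the other direction, Syt1 (0.20, adjusted p = 0.0169) also passed.

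Ccn2 (formerly Ctgf), a secreted matrix protein gene and a widely used YAP readout, rose more than the other 7 tested members. Its raw signal was 74.5, 71.5 and 72.8 units on the control arrays 1 to 3 against 118, 106 and 107 on the knockdown arrays 1 to 3. All 3 knockdown arrays stood clear of all 3 controls, whose signals were themselves not far above the detection limits. On the log2 scale it read 6.04 ± 0.047 (SD, n = 3) under control virus and 6.65 ± 0.080 (SD, n = 3) under knockdown virus. The log2 fold change was 0.61 (SE 0.0464, 95% interval 0.50 to 0.71, adjusted p = 0.00042 in limma), the 14th smallest p among all genes tested. In the authors' processed values, which subtract the blank signal, Ccn2 read 12, 10 and 9 under control virus and 41, 38 and 31 under knockdown virus. The ratio of those means was 3.55, against 1.53 on the reported scale, while an offset of 16 gave a log2 fold change of 1.06. Arrays fell into 2 sets by scanner gain, and within them, with 2 arrays against 1, Ccn2 read 0.63 (adjusted p = 0.0174) and 0.62 (adjusted p = 0.0614). In each of these small fits only 39 of 17422 genes passed, so a missed threshold within a gain set says nothing about a gene's stability, and the sizes are what can be compared.

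Ccn1 (formerly Cyr61), a CCN gene likewise used as a YAP target, did not pass. Its log2 intensity was 6.92, 6.84 and 7.01 under control virus and 6.93, 6.91 and 6.88 under knockdown virus. The groups overlapped fully, and the log2 fold change was -0.02 (95% interval -0.14 to 0.11, adjusted p = 0.88). Within the gain sets it read 0.029 (adjusted p = 0.93) and -0.11 (adjusted p = 0.512). The change of Ccn2 exceeded that of Ccn1 by 0.63 log2 units, and the Ccn2 minus Ccn1 values of the groups did not overlap. An exact two-sided permutation test of it gave p = 0.1, the smallest that 3 against 3 arrays allow. The pair was picked with its values known and no smaller p was possible, so this test decides nothing. The same holds for the pairs of Lats2, Wwtr1 and Amotl1 below.

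Ccn3 (formerly Nov), a CCN gene often described as opposing Ccn2, had raw signals of 59.7, 60.5 and 61.8 under control virus and 62.5, 61.9 and 62.1 under knockdown virus, each below its array's limit. Of the CCN genes outside the member list, Ccn4 was above the limit on 2 of 6 arrays and was not tested, and Ccn5 was above it on all 6. Ccn5 read 5.84, 5.84 and 5.83 under control virus and 5.80, 5.81 and 5.82 under knockdown virus, close to the floor of the scale, and did not pass (log2 fold change -0.03, adjusted p = 0.295). Of the 3 CCN genes tested, Ccn2 was called and Ccn1 and Ccn5 were not.

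Ankrd1, a cardiac and muscle ankyrin repeat gene and a strong YAP target in many cell lines, was at the blank level. Its raw signal was 61.0, 58.7 and 61.2 under control virus and 60.7, 59.6 and 61.3 under knockdown virus. Only control replicate 1 was above its limit, and by less than 1 unit, so no fold is given. Its promoter carries 2 of the motif matches shown above.

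Amotl2, the angiomotin-like gene that is both a target and a brake of YAP, was the only one of the 8 tested members that fell. Its log2 intensity was 6.87, 7.03 and 6.95 under control virus and 6.79, 6.76 and 6.65 under knockdown virus, with no overlap between the groups. Before normalisation the raw signals, 121, 140 and 132 against 124, 111 and 114, did overlap. The log2 fold change was -0.22 (SE 0.0587, 95% interval -0.35 to -0.09, adjusted p = 0.0489). This call lay at the threshold: it was lost in 14 of 23 alternative analyses, including the authors' values (-0.42, adjusted p = 0.0919), median scaling (adjusted p = 0.0507) and the removal of any array but that of control replicate 1 (adjusted p up to 0.155). It read -0.20 (adjusted p = 0.509) and -0.23 (adjusted p = 0.257) within gain sets 1 and 2.

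Lats2, the kinase gene that YAP induces and that in turn restrains YAP, rose. It read 7.06, 7.10 and 7.07 under control virus and 7.28, 7.32 and 7.41 under knockdown virus, and every knockdown array was above every control. The log2 fold change was 0.26 (SE 0.0542, 95% interval 0.14 to 0.38, adjusted p = 0.0201), and 0.36 (adjusted p = 0.0345) in the authors' values. Removing any one array other than those numbered 1 raised the adjusted p to between 0.0525 and 0.0695, and without both arrays numbered 1 it was 0.0557. Within the gain sets Lats2 read 0.24 (adjusted p = 0.402) and 0.28 (adjusted p = 0.232). Its paralog Lats1 read -0.04 (95% interval -0.14 to 0.06). The change of Lats2 exceeded that of Lats1 by 0.30 log2 units, with no overlap between the arrays of both groups (exact permutation p = 0.1, the smallest possible).

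Ajuba, a LIM protein gene whose product restrains LATS kinases, was dim and did not pass. It read 5.97, 5.94 and 5.96 under control virus and 5.90, 5.95 and 5.99 under knockdown virus. The groups overlapped, and the log2 fold change was -0.01 (95% interval -0.07 to 0.05, adjusted p = 0.856) on a scale that compresses genes this close to the floor. It read -0.0011 and -0.02 within gain sets 1 and 2.

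Of the 2 coactivator genes Wwtr1 rose and Yap1 did not pass. Wwtr1 read 8.31, 8.22 and 8.41 under control virus and 8.79, 8.64 and 8.59 under knockdown virus, so the groups were fully separated. The log2 fold change was 0.36 (SE 0.0787, 95% interval 0.18 to 0.54, adjusted p = 0.0228), a 1.29-fold rise. The call was lost in the authors' values (0.38, adjusted p = 0.116), with median scaling (adjusted p = 0.0707), with gain set as a block (adjusted p = 0.0517) and without both arrays numbered 1 (adjusted p = 0.0985). Removing control replicate 2 (adjusted p = 0.0839), knockdown replicate 1 (0.0817) or knockdown replicate 2 (0.0634) also ended it, and within the gain sets it read 0.38 (adjusted p = 0.32) and 0.28 (adjusted p = 0.318). The size stayed between 0.28 and 0.41 in each of the 23 alternatives.

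Yap1 read 6.35, 6.42 and 6.38 under control virus and 6.03, 6.53 and 6.54 under knockdown virus. Knockdown replicate 1 lay below all controls and the other 2 knockdown arrays lay above them, which gave the widest spread among the 8 tested members (SD 0.293, n = 3, against 0.035 in the controls). The log2 fold change was -0.01 (95% interval -0.28 to 0.25, adjusted p = 0.969), and 0.16 without knockdown replicate 1 (adjusted p = 0.0875). That interval reaches nearly to the change measured for Lats2. Within the gain sets Yap1 read 0.15 (adjusted p = 0.444) and -0.09 (adjusted p = 0.823). The change of Wwtr1 exceeded that of Yap1 by 0.37 log2 units (exact permutation p = 0.1, the smallest possible).

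Tead1, the gene of a TEAD factor that both coactivators can bind, did not pass. Its brighter probe read 8.20, 8.19 and 8.21 under control virus and 8.39, 8.40 and 8.23 under knockdown virus. All knockdown arrays were above all controls, knockdown replicate 3 by the least, and the log2 fold change was 0.14 (95% interval -0.01 to 0.30, adjusted p = 0.236). It read 0.21 (adjusted p = 0.546) and 0.10 (adjusted p = 0.682) within gain sets 1 and 2. The dimmer Tead1 probe read 0.0076 (adjusted p = 0.893 over all probes). Counting Tead1, the groups did not overlap for 5 of the 8 tested members, 4 higher and 1 lower, against 29.9% of all genes tested.

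**Figure D3:**
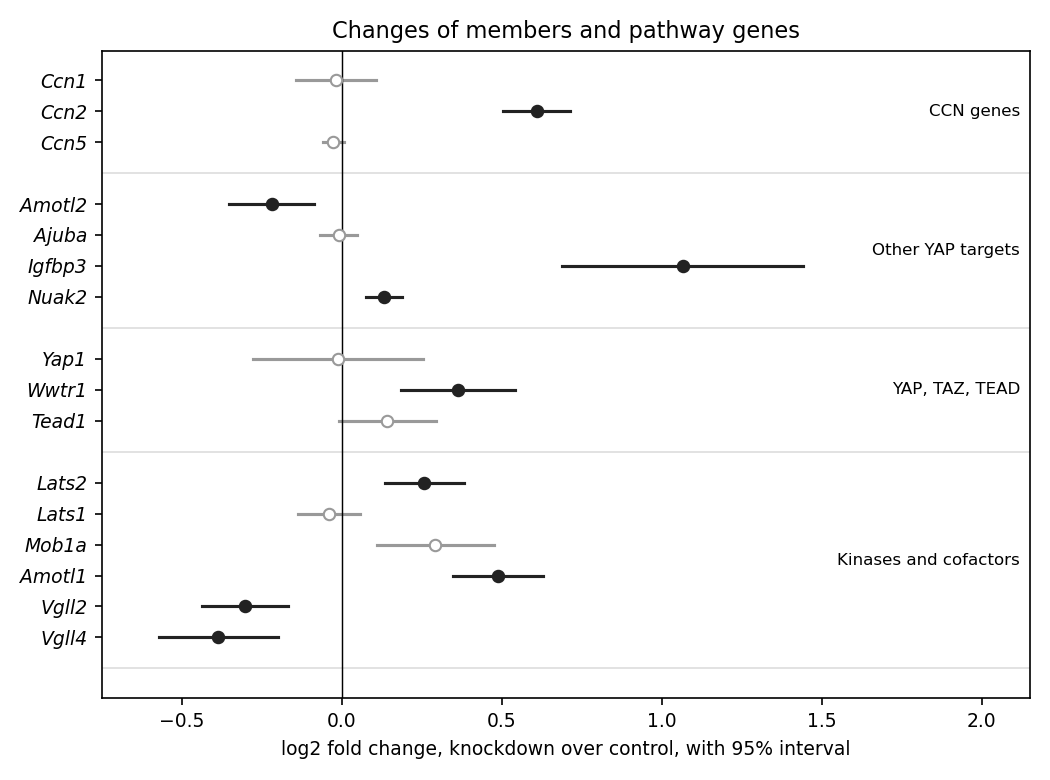
Log2 fold change of knockdown over control (points) with 95% intervals (bars) for the tested members, Ccn5 and 7 named genes of the Hippo and YAP target lists; filled points passed at an adjusted p below 0.05 and open points did not. Igfbp3 at 1.07 and Ccn2 at 0.61 lie farthest to the right, and Vgll4 at -0.39 farthest to the left.

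Around the members, a list of 35 other Hippo pathway genes held 32 on the array, all tested. Of these 1 rose, 2 fell and 29 did not pass, a share of 9.38% against 9.63% of all genes, and the list's median log2 fold change was -0.0025. The core kinase and scaffold genes Stk4 (MST1), Sav1, Lats1 and Nf2 lay between -0.05 and 0.06 and did not pass. Mob1a, a coactivator of LATS kinases, read 0.29 and did not pass (adjusted p = 0.0528), but it passed with the replicate number as a block (0.00996), with median scaling (0.0366), with robust eBayes (0.0453), with gain set as a block (0.0248) and on removal of knockdown replicate 3 (0.0314). The angiomotin gene Amotl1 rose by 0.49 (SE 0.0621, adjusted p = 0.0027) from 7.66, 7.71 and 7.74 to 8.27, 8.17 and 8.14. Its dimmer probe read 0.01 (adjusted p = 0.868 over all probes), so the rise rests on 1 probe. Within the gain sets Amotl1 read 0.48 (adjusted p = 0.187) and 0.46 (adjusted p = 0.143). The change of Amotl1 on that probe exceeded that of its relative Amotl2 by 0.71 log2 units (exact permutation p = 0.1, the smallest possible; this and the 3 pairs above were set up after the values were seen, and all 4 adjusted p were 0.1).

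The 2 Hippo genes that fell were Vgll4 and Vgll2, which encode vestigial-like cofactors that bind TEAD. Of the same family, Vgll1 read 0.09 (adjusted p = 0.332) and Vgll3 0.03 (adjusted p = 0.554), and neither passed. Vgll4, which competes with YAP for TEAD, read 9.75, 9.49 and 9.52 under control virus and 9.24, 9.21 and 9.16 under knockdown virus. Its log2 fold change was -0.39 (SE 0.0828, adjusted p = 0.0218), and the call was lost without any 1 of the 3 knockdown replicates (adjusted p up to 0.0752), without both arrays numbered 1 (0.0563) and when gain set was a block (0.0519). It read -0.41 (adjusted p = 0.382) and -0.32 (adjusted p = 0.242) within gain sets 1 and 2. Vgll2, a muscle cofactor close to the floor of the scale, read -0.30 (SE 0.0595, adjusted p = 0.0153), and its call ended when knockdown replicate 1 (0.0561) or 2 (0.0567) was removed and when the variance trend was left out (0.0544). Within the gain sets it read -0.25 (adjusted p = 0.0916) and -0.45 (adjusted p = 0.0236), and in the authors' values -1.81. The other TEAD genes Tead2, Tead3 and Tead4 lay between -0.02 and -0.0004 and did not pass.

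Of 16 further genes commonly used as YAP and TAZ targets, 15 were tested: 2 rose, 0 fell and 13 did not pass, with a median log2 fold change of 0.01. The share that passed, 13.3%, was near the 9.63% of all genes. Igfbp3, a secreted carrier of insulin-like growth factors that is also induced by p53 and TGF-beta, rose by 1.07 (SE 0.167, adjusted p = 0.00582). Its control arrays read 10.11, 10.71 and 10.75 and its knockdown arrays 11.37, 11.71 and 11.67, with control replicate 1 the lowest. It read 1.30 (adjusted p = 0.123) and 0.78 (adjusted p = 0.108) within gain sets 1 and 2. Nuak2, a kinase gene of the AMPK family, rose by 0.13 (SE 0.0249, adjusted p = 0.0134) near the floor of the scale and by 0.59 (adjusted p = 0.0337) in the authors' values. The Nuak2 call ended on removal of knockdown replicate 2 (adjusted p = 0.0539) and without both arrays numbered 1 (adjusted p = 0.052). Nuak2 read 0.15 (adjusted p = 0.252) and 0.14 (adjusted p = 0.174) within the gain sets. Gadd45a (0.34, adjusted p = 0.0864, and 0.0298 with the replicate block) and Fjx1 (-0.19, adjusted p = 0.0975) did not pass. The receptor gene Axl read 0.08, the coagulation factor gene F3 0.17 and the ligand gene Tgfb2 -0.16 (adjusted p = 0.174), all short of the threshold. Among them only Tgfb2 had an unadjusted limma p below 0.05 (0.038).

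Ccn1, Ccn2 and Ankrd1 are also known targets of SRF, which reads actin dynamics, and Ccn2 of TGF-beta. Of 18 tested SRF and cytoskeletal genes 1 rose and 1 fell (11.1%, against 9.63% of all genes), with a median log2 fold change of 0.0029. Vcl, which encodes the focal adhesion protein vinculin, rose by 0.50 (SE 0.0889, adjusted p = 0.00979), a call lost without both arrays numbered 1 (adjusted p = 0.0613). Vcl read 0.34 (adjusted p = 0.321) and 0.54 (adjusted p = 0.106) within the gain sets. Tpm1, a tropomyosin gene, fell by 0.44 (SE 0.0835, adjusted p = 0.0128), a call that ended when knockdown replicate 1 (0.0524) or 3 (0.0512) was removed. Tpm1 read -0.35 (adjusted p = 0.435) and -0.49 (adjusted p = 0.142) within the gain sets. Tpm4 read -0.43 (adjusted p = 0.0614) and Myh9, the non-muscle myosin gene, 0.15 (adjusted p = 0.0935). With the replicate block 3 SRF genes rose and 3 fell, where 14.8% of all genes passed, and Tagln (0.0062), Tagln2 (0.0107), Tpm4 (0.0187) and Myh9 (0.0484) were then among them. Of 12 TGF-beta genes 1 rose and 0 fell (8.33%, against 9.63% of all genes). The gene that rose was Tgfbr2, the type II receptor gene, by 0.38 (SE 0.0923, adjusted p = 0.0354). That call ended in 10 of 23 alternatives, among them the authors' values (1.24, adjusted p = 0.0825) and the removal of control replicate 2 (0.102), control replicate 3 (0.107), knockdown replicate 1 (0.0625) or knockdown replicate 2 (0.0797). Within the gain sets it read 0.30 (adjusted p = 0.162) and 0.48 (adjusted p = 0.207). Tgfb3 read 0.10 (adjusted p = 0.0513), Smad4 -0.23 (adjusted p = 0.0664) and Tgif1 0.15 (adjusted p = 0.0798). With the replicate block Tgfb3 (0.0405) and Smad4 (0.0489) passed as well, and so did the Hippo kinase gene Stk38 (-0.31, adjusted p = 0.0313).

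Across the 6 arrays the genes whose log2 values followed Ccn2 most closely were Psmd5, a proteasome assembly factor gene (Pearson r = 0.995), the unnamed transcript gene 2300009A05Rik (0.994), Ampd2, an AMP deaminase gene (0.993), and Myl3, a myosin light chain gene (0.993). They were ranked among 17421 genes, of which 16 had r above 0.99. These values hold the difference between the groups, which is most of the variation of Ccn2 itself. Psmd5 read 0.24 (adjusted p = 0.0511), 2300009A05Rik 0.64 (adjusted p = 0.00157), Ampd2 0.26 (adjusted p = 0.0192) and Myl3 0.08 (adjusted p = 0.0358). Among the members, Wwtr1 was closest to Ccn2 (r = 0.93) followed by Lats2 (0.89) and Tead1 (0.86), and Amotl2 was opposite (-0.83). After the group means were removed the values were 0.49 for Wwtr1, -0.91 for Lats2, 0.85 for Tead1 and 0.27 for Amotl2, over the same 6 arrays.

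**Figure D4:**
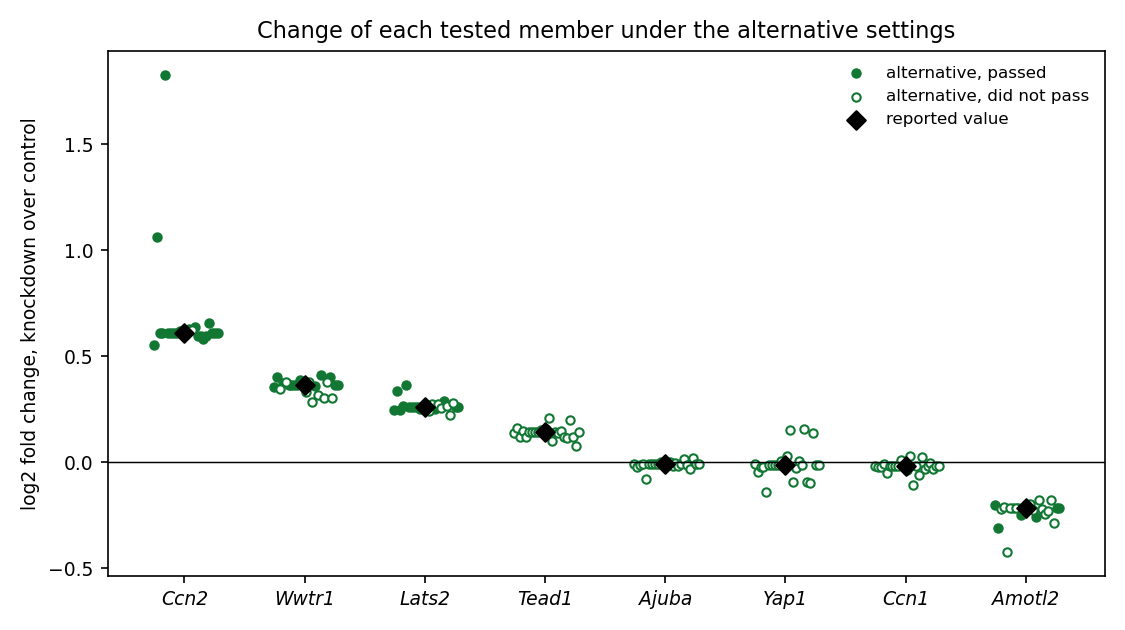
Log2 fold change of knockdown over control for each of the 8 tested members as reported (diamonds) and under 23 alternative analyses (circles, filled where the gene passed and open where it did not). Ccn2 stays between 0.55 and 1.83 and passes in 22 of 23, while Wwtr1, Lats2 and Amotl2 keep their direction and lose their call in 9, 7 and 14.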

How the data were processed

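The 6 samples were each hybridised to a one-colour TORAY array as Cy5-coupled amplified RNA, per the labels' protocols. Per the file headers, each deposited intensity is a spot median at 635 nm, and scans at 3 gains were related by least-squares lines. The slopes of those lines split the arrays into gain set 1 (control 1 and 2, knockdown 2) and gain set 2 (control 3, knockdown 1 and 3), which may be batches. The authors' second deposited intensity table was, from its values, the spot signal less about the blank mean, scaled to a median of 25 and rounded, with no stated method.

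Spot intensities were corrected with normexp (offset 50, no local background, which tracked the signal), quantile normalised and averaged per probe with limma 3.58.1 (statmod 1.5.0, R 4.3.3). Tested probes exceeded the blank mean plus 2 SD on at least 3 arrays, and 1 probe bad at every gain was left out. A gene was represented by its brightest probe (17422 genes). Groups were compared with limma without a block (eBayes with a trend, two-sided, Benjamini-Hochberg over all genes). The procedure was tested on simulated data with independent noise on each array and changes set only in brighter genes. It therefore did not cover dim genes or effects shared by arrays of the same number or gain set. Figures used matplotlib 3.10.9.

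Median signals of gene probes were 83.4 to 89.4 against blank means of 58.9 to 61.9, and 3 arrays per group limit the precision. The members and lists were chosen with earlier results of these data known. Named genes were the members, the other CCN genes and Chd7, list genes that passed or had the 4 smallest p, and the 4 genes most correlated with the member of smallest p. Other list and marker genes named, and the 4 pair tests, were picked with their values known.

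The labels number both groups 1 to 3. Deviations from group means correlated at 0.36, 0.38 and 0.23 between arrays of the same number and at -0.32 to -0.01 between the others. From the data alone the numbers may therefore pair the arrays, but the reported fits and permutation tests did not use this pairing. With the replicate number as a block, an alternative, limma called 2581 genes against 1677 in the reported fit. Alternatives covered background, normalisation, the authors' values, filters, variance models, weights, blocks, gain sets, probe choice, threshold and left-out arrays.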

Additional observations from a re-analysis of the deposited data

How the results depend on the processing

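The replicate block ended no call of a member or of a named list gene, and beyond the calls given in the report it changed no other call among the members, pathway lists and marker lists. The members that passed were 4 as reported, 2 with median scaling, 2 in the authors' values, 2 with gain set as a block, 1 and 0 within the gain sets, 1 without both arrays numbered 1, and 1 to 4 when each array was left out. Over all genes 1677 passed (46.6% higher), 1009 in the authors' values (32.0% higher), 2581 with the replicate block, 39 and 39 within the gain sets (61.5% and 25.6% higher), 800 without both arrays numbered 1, 2687 at a threshold of 0.1 and 748 to 1453 with an array left out. Hippo list calls were 3, 5 with the replicate block, 0 and 1 within the gain sets, and 1 to 3 with an array left out. YAP target calls were 2, 0 and 0 within the gain sets, 1 without the arrays numbered 1, 4 at a threshold of 0.1 and 1 to 3 with an array left out. SRF calls were 2, 6 with the replicate block, 0 and 0 within the gain sets, 1 without the arrays numbered 1, 4 at a threshold of 0.1 and 1 to 2 with an array left out. TGF-beta calls were 1, 2 with probes above the limit on all 6 arrays, 2 without the variance trend, 4 with array weights, 3 with the replicate block, 0 with gain set as a block, 0 and 0 within the gain sets, 4 at a threshold of 0.1 and 0 to 1 with an array left out. At an unadjusted p below 0.05 limma gave 3 members within gain set 2 and, where a list had 0 calls, 2 to 5 of its genes. The all-gene count was 951 without control 2, 1061 without control 3, and 748, 858 and 990 without knockdown 1, 2 and 3.

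Ccn1 turned positive with array weights (0.0081) and within gain set 1 (0.029), Ajuba without the arrays numbered 1 (0.0196), and Yap1 with array weights (0.0053), gain set as a block (0.0289), within gain set 1 (0.15) and without the arrays numbered 1 (0.14). With an array left out Ccn1 ranged from -0.059 to 0.025, Ajuba from -0.032 to 0.015 and Yap1 from -0.10 to 0.16. None of these passed, and the cause was not tested. Fewer arrays were used in the left-out and gain set fits, and within a gain set the group with 1 array was given the spread of the group with 2. Signals of Ccn2 controls, Ajuba, Ccn5, Nuak2 and Vgll2 near the blank level limit the size of their changes, and Ccn3 and Ankrd1 were not measurable.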
